A study of Homo sapiens with 6 samples.

Results

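Heat shock proteins and their DNAJ co-chaperones were followed by RNA sequencing in the established human liver cancer cell line Huh7. The knockdown cells (sh2) carried a lentivirus against the V1 isoform of versican, a large proteoglycan of the extracellular matrix, and the control cells (shNC) carried a control lentivirus; virus for either group was made in 293T cells and added with polybrene. There were 3 libraries in each group, numbered in their titles, and the knockdown libraries bear the name of 1 hairpin. The labels give no time after infection and do not name the culture behind each library, so p-values reflect a spread among libraries that may be technical.

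The genes were taken by symbol from the deposited expression table of 23344 rows. A gene was a member when its symbol started with HSPA, HSPB, HSPD, HSPE, HSPH, HSP90, DNAJA, DNAJB or DNAJC and did not end in P and digits, the mark of most pseudogenes, and when its value was at least 1 in at least 3 libraries. There were 71 rows with such a symbol, 57 of which reached the value and are the members, among 13696 genes tested in all. The symbol rule also leaves out HSPBP1 and HSPBAP1, whose names end in P1. The 14 rows below the value included HSPA6, DNAJB13, HSPB7 and HSPA12B, and the highest value in any library was under 1 in 10 of them. Just under the limit were HSPA1L, with 0.36, 0.70 and 0.61 in sh2 and 0.87, 1.13 and 0.48 in shNC replicates 1, 2 and 3, and DNAJC12, at 1.46 in sh2 replicate 1 and between 0.66 and 0.79 in the other libraries. Just inside it were HSPA12A, DNAJC28 and DNAJC6, with means over the 6 libraries of 1.03, 1.30 and 1.61.

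HSP70 proteins bind exposed hydrophobic stretches of unfolded proteins in a cycle driven by ATP. J proteins, which the DNAJ genes encode, deliver clients to HSP70 and stimulate its ATPase, nucleotide exchange factors such as the HSP110 proteins reset it, and HSP90 and the HSP60 chaperonin take over part of the clients. Each large compartment has its own set: HSPA8 and HSP90AA1 in the cytosol, HSPA5 and HSP90B1 in the endoplasmic reticulum (ER), HSPA9, HSPD1 and HSPE1 in the mitochondrion. Cytosolic genes are classically induced by heat shock factor HSF1 and those of the ER by the unfolded protein response.

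VCAN, the targeted gene, had values of 1.90, 1.74 and 1.64 in sh2 and 4.79, 6.24 and 8.10 in shNC replicates 1, 2 and 3, so its groups did not overlap; the table does not separate the V1 isoform. All values here are treated as FPKM (fragments scaled to transcript length and library size), which are comparable between genes. Their sums were 922125 to 975501 in sh2 and 851418 to 947769 in shNC libraries, and the number of reads is unknown. Transcripts of the 13 mitochondrially encoded genes made up 23.8% to 31.2% of the sum in sh2 and 16.0% to 19.2% in shNC libraries. Of the hepatocyte markers fixed for the line, all 8 were at 9.97 or above in every library. Over 9 leukocyte markers, values summed to 110.1, 205 and 110.0 in sh2 and 92.9, 85.5 and 77.7 in shNC replicates 1, 2 and 3. CD14 and LYZ had the highest values of the 9 in every library. S100A8 was at 17.9 in sh2 replicate 2 and listed at 0 elsewhere. S100A9, NKG7 and PTPRC were at 30.57, 5.54 and 1.96 in sh2 replicate 2, and at most 4.13, 0.1 and 0.16 elsewhere. The source of these transcripts in sh2 replicate 2 was not tested. Sh2 replicate 1 stood apart from the other sh2 libraries. Across the genes tested, log2 values of sh2 replicate 1 had a correlation of 0.975 and 0.970 with sh2 replicates 2 and 3. Sh2 replicates 2 and 3 had 0.987 with each other. With shNC replicates 1, 2 and 3, sh2 replicate 1 had 0.976, 0.969 and 0.973, about as high as within its own group. Counts of members and lists are given below with and without sh2 replicate 1.

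The members spanned almost 3 orders of magnitude in level. Of the 57, 13 had a mean value of at least 100 over the 6 libraries, 31 lay between 10 and 100 and 13 below 10. The 6 most abundant were, in order, HSPA8, HSP90AA1, HSP90AB1, HSPE1, HSPB1 and HSPD1, at 786, 683, 585, 573, 446 and 411. Together these 6 held 51.6%, 54.9% and 53.8% of the members' summed value in sh2 and 61.0%, 62.0% and 63.8% in shNC replicates 1, 2 and 3. The whole sum was 5744, 4974 and 4823 in sh2 and 6338, 6886 and 7024 in shNC replicates 1, 2 and 3, so it was lower in every sh2 library.

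Promoters of 6 abundant members are shown, picked because they hold sequence motifs for which these genes are known. RefSeq windows (build GRCh38.p14) from 250 bases before to 50 after an annotated start were found for 52 of the 57 members, 70 windows in all. They were searched on either strand for a heat shock element, the binding motif of heat shock factors, spelled GAA, TTC and GAA with 2 bases of any kind between them (TTC, GAA and TTC when read on the other strand), and for the ER stress element of the unfolded protein response, spelled CCAAT and CCACG with 9 bases of any kind between them. A heat shock element was found in 6 of the 70 windows (8.57%), those of HSP90AA1, HSP90AB1, HSPA8, HSPD1, DNAJA1 and DNAJB6, against 172 of all 35116 windows (0.490%). The ER stress element was found in 2 windows (2.86%), those of HSPA5 and HSP90B1, against 27 of all windows (0.0769%). The windows of 6 members follow, each read from 5′ to 3′ on the gene's strand, with matches in capitals. The matching windows of DNAJA1 and DNAJB6 are not printed. HSP90AA1 lies on the minus strand at chr14:102086995-102087294, and its match begins 88 bases upstream of the start. HSP90AB1 lies on the plus strand at chr6:44247693-44247992, with matches from 165 and 112 bases upstream. HSPA8 lies on the minus strand at chr11:123062087-123062386, with matches from 230 and 55 bases upstream. The HSPD1 window on the minus strand at chr2:197499791-197500090 has a pair of overlapping matches, which begin 245 and 240 bases upstream. HSPA5 lies on the minus strand at chr9:125241294-125241593, with its ER stress element from 66 bases upstream. HSP90B1 lies on the plus strand at chr12:103930160-103930459, with matches from 194 and 89 bases upstream.
HSP90AA1: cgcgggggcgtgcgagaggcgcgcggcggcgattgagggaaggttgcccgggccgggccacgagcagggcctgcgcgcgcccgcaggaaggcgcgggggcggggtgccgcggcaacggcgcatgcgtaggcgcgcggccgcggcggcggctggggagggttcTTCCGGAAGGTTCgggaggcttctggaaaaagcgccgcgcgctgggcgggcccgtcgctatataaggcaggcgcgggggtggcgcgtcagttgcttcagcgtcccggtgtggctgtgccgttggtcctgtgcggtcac
HSP90AB1: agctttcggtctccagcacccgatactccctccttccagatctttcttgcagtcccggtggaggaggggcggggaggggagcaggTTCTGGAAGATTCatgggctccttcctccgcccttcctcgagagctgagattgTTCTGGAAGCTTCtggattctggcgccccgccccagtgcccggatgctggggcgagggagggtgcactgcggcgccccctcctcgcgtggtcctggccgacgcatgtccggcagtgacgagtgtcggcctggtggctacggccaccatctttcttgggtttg
HSPA8: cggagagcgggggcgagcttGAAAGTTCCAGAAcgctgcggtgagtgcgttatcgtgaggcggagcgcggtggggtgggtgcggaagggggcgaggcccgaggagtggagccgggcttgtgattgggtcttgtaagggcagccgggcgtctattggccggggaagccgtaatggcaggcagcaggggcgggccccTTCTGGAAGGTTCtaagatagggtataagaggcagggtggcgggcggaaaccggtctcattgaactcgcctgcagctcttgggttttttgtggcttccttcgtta
HSPD1: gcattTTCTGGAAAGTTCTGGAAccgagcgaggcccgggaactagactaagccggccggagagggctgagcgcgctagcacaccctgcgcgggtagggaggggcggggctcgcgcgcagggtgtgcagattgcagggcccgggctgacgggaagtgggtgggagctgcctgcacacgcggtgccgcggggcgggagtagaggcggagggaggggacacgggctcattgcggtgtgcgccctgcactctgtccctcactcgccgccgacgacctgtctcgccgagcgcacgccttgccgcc
HSPA5: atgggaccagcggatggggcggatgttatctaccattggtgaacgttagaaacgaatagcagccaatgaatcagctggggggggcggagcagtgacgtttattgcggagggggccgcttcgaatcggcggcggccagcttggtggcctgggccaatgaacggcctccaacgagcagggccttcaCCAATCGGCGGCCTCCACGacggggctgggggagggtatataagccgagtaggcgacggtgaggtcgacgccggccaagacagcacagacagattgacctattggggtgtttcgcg
HSP90B1: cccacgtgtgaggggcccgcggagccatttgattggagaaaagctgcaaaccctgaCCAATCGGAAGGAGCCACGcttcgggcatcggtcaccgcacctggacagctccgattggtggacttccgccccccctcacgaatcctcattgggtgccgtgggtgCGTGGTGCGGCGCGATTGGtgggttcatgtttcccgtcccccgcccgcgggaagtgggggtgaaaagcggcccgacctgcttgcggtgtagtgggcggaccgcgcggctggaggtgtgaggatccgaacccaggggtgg

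The strict spelling matches few windows. Windows of HSPA1A, HSPA1B, HSPH1 and DNAJB1, which are heat-inducible genes, held no match, which says only that these letters are not in those 300 bases. HSPD1 and HSPE1, the mitochondrial HSP60 and its HSP10 lid, are neighbours transcribed away from each other. The other HSPD1 window (chr2:197500225-197500524, minus strand) shares 204 bases with the HSPE1 window (chr2:197500129-197500428, plus strand), and the window printed above ends 38 bases before the HSPE1 window, which held no match itself.

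Cytosolic HSP90 transcripts were lower in the knockdown libraries. HSP90AA1, which encodes the stress-inducible HSP90 alpha, had values of 511, 473 and 465 in sh2 and 772, 818 and 1056 in shNC replicates 1, 2 and 3. Every sh2 library was below every shNC library, and the log2 fold change was -0.86 (SE 0.14, limma adjusted p = 0.0150). HSP90AB1, the gene of the constitutive HSP90 beta, had 490, 484 and 420 in sh2 and 624, 769 and 721 in shNC replicates 1, 2 and 3. Its groups did not overlap, and it fell by 0.60 on the log2 scale (SE 0.12, adjusted p = 0.0277). HSP90B1, which encodes the ER member GRP94, had 314, 271 and 291 in sh2 and 271, 288 and 311 in shNC replicates 1, 2 and 3, with overlapping groups (log2 fold change 0.01, SE 0.11, adjusted p = 0.966). In bulk RNA, fewer cells that express a gene and less RNA per cell cannot be told apart, here and in the results that follow. Over 11 alternatives HSP90AA1 passed in 9, with an adjusted p of 0.00417 to 0.0610; it did not pass without sh2 replicate 2 or without shNC replicate 2. HSP90AB1 passed in 4, with an adjusted p of 0.00878 to 0.112.

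HSPA8, which encodes the constitutive cytosolic HSP70 (HSC70), had the highest level of all members. Its value was 622, 614 and 533 in sh2 and 777, 1067 and 1100 in shNC replicates 1, 2 and 3. The groups did not overlap, and HSPA8 fell by 0.72 on the log2 scale (SE 0.15, adjusted p = 0.0305), passing in 4 of 11 alternatives (adjusted p 0.0124 to 0.123). The stress-inducible HSP70 genes did not pass the test. HSPA1A had 79.2, 49.6 and 52.0 in sh2 and 74.1, 85.3 and 77.6 in shNC replicates 1, 2 and 3. HSPA1B had 42.0, 20.8 and 19.4 in sh2 and 52.5, 55.7 and 35.5 in shNC replicates 1, 2 and 3. In either gene sh2 replicates 2 and 3 were below all shNC libraries and sh2 replicate 1 lay among them (HSPA1A -0.42, adjusted p = 0.162; HSPA1B -0.85, SE 0.29, adjusted p = 0.0987). The copies are near-identical, so how reads were divided between them is uncertain. HSPA6, another strictly stress-inducible HSP70 gene, stayed at or below 0.20 in every library.

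The HSP110 genes, whose products exchange nucleotide on cytosolic HSP70, did not pass the test. HSPH1 had 74.4, 56.0 and 61.9 in sh2 and 84.4, 98.9 and 88.7 in shNC replicates 1, 2 and 3, with every sh2 library below every shNC library (-0.50, SE 0.13, adjusted p = 0.0533). Its relatives HSPA4 and HSPA4L had log2 fold changes of -0.39 (adjusted p = 0.0691) and -0.57 (adjusted p = 0.0692), again with no overlap between the groups. HSPA14, which works with DNAJC2 at the ribosome, had 30.4, 21.7 and 18.0 in sh2 and 33.9, 37.0 and 27.2 in shNC replicates 1, 2 and 3, overlapping groups (-0.49, adjusted p = 0.145).

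Of the 11 HSPA genes, HSPA8 fell and HSPA12A rose (9.09% each, against 3.94% and 4.15% of all genes). The median log2 fold change was -0.39. Without sh2 replicate 1, 7 fell and 2 rose, against 12.4% and 12% of all genes. When any other single library was left out, 0 to 1 fell and 0 rose, and 54 to 222 of all genes were called. HSPA12A, a distant HSP70 relative, had 1.66, 1.56 and 1.43 in sh2 and 0.47, 0.60 and 0.44 in shNC replicates 1, 2 and 3 (0.76, SE 0.17, adjusted p = 0.0359). It was the lowest of all members, entered the test through its sh2 values alone and so had to differ, and passed in 3 of 11 alternatives (adjusted p 0.0336 to 0.118). HSPA2, a HSP70 gene best known from the testis, had 26.2, 36.6 and 37.5 in sh2 and 27.2, 24.5 and 26.6 in shNC replicates 1, 2 and 3; sh2 replicates 2 and 3 were above the rest (0.33, adjusted p = 0.191).

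In the mitochondrion, the HSP10 gene of the chaperonin was lower. HSPE1 had 511, 430 and 445 in sh2 and 716, 663 and 671 in shNC replicates 1, 2 and 3. The groups were apart, and HSPE1 fell by 0.57 on the log2 scale (SE 0.11, adjusted p = 0.0236), passing in 5 of 11 alternatives (adjusted p 0.00366 to 0.10). HSPD1 had 419, 284 and 244 in sh2 and 433, 567 and 521 in shNC replicates 1, 2 and 3, and did not pass (-0.71, SE 0.20, adjusted p = 0.0604). Sh2 replicate 1 lay just under the lowest shNC library. By GENCODE release 29 the HSPD1 and HSPE1 genes overlap on opposite strands, and no source used here gives the strand setting of the counting, so reads of the shared stretch cannot be assigned. HSPA9, which encodes mortalin, the HSP70 of the mitochondrial matrix, had 310, 178 and 172 in sh2 and 214, 258 and 230 in shNC replicates 1, 2 and 3. The single highest library was therefore sh2 replicate 1, while sh2 replicates 2 and 3 were the lowest (-0.14, adjusted p = 0.70).

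**Figure D1:**
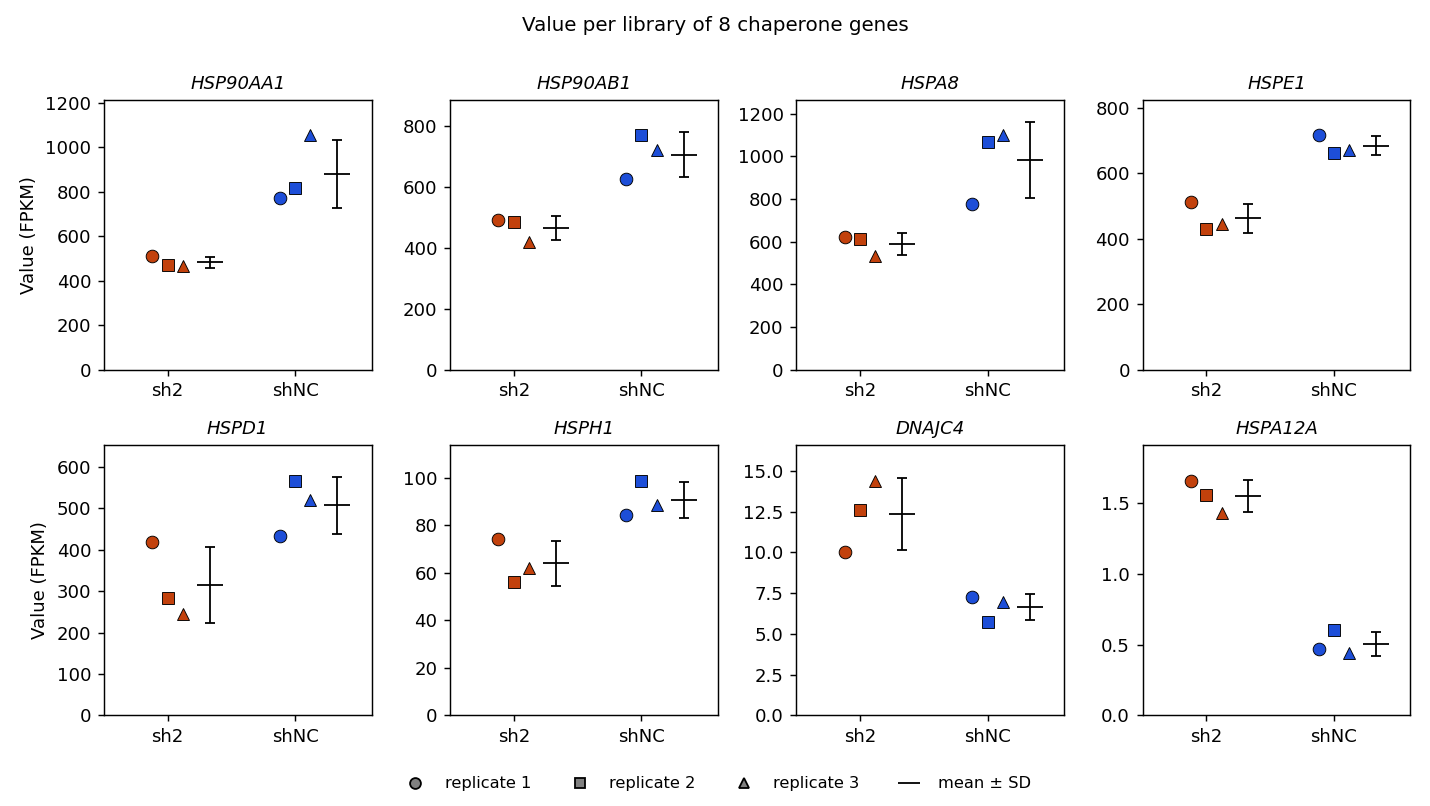
Value (FPKM) of 8 chaperone genes in each library, with sh2 left of shNC; symbols mark the replicate number and bars the mean ± SD of 3 libraries. The upper row and HSPD1 and HSPH1 have every sh2 point below every shNC point, and DNAJC4 and HSPA12A every sh2 point above. HSPA12A entered the test through its sh2 values alone.

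J proteins of the DNAJA class, the closest relatives of bacterial DnaJ, lay on the lower side and none passed the test. DNAJA1, the most abundant at a mean of 129, had 118, 121 and 112 in sh2 and 130, 147 and 148 in shNC replicates 1, 2 and 3 (-0.27, adjusted p = 0.129). DNAJA2 and the mitochondrial DNAJA3 had log2 fold changes of -0.38 (adjusted p = 0.0912) and -0.41 (adjusted p = 0.0738). In these 3 genes the groups did not overlap, while in DNAJA4 they did. The median of the 4 genes was -0.33, and DNAJA4 turned to the upper side after the rescaling described below. Without sh2 replicate 1, 2 of the 4 fell, against 12.4% of all genes. When any other single library was left out, 0 of the 4 were called, and 54 to 222 of all genes were.

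In the DNAJB class 0 of 9 members were called by limma, with a median of 0.24. An unadjusted p below 0.05 was found for 3 of the 9, against 4019 of all 13696 genes tested. Without sh2 replicate 1 the median was 0.03, and 2 rose and 2 fell, against 12% and 12.4% of all genes. When any other single library was left out, 0 of the 9 were called, and 54 to 222 of all genes were. DNAJB1, the heat-inducible HSP40 partner of cytosolic HSP70, had 86.5, 54.5 and 48.9 in sh2 and 92.9, 121 and 71.6 in shNC replicates 1, 2 and 3 (-0.59, SE 0.24, adjusted p = 0.15). As in HSPA1A, sh2 replicate 1 lay within the shNC range and the other sh2 libraries below it. DNAJB2 and DNAJB5 showed the opposite order. DNAJB2, a J protein that also binds ubiquitin, had 27.2, 46.7 and 46.1 in sh2 and 30.3, 26.6 and 35.1 in shNC replicates 1, 2 and 3 (0.34, adjusted p = 0.321). DNAJB6, a strong suppressor of protein aggregation, differed by less than the spread between libraries, at 81.8 ± 2.45 in sh2 and 82.2 ± 9.40 in shNC (SD, n = 3 each).

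Among the 24 DNAJC members, which share little beyond the J domain, 1 rose and 0 fell (4.17% higher, against 4.15% of all genes), and the median was -0.09 (0.01 after the rescaling described below). Without sh2 replicate 1, 2 rose and 3 fell, against 12% and 12.4% of all genes, and the median was -0.05. When any other single library was left out, 0 of the 24 were called, and 54 to 222 of all genes were. DNAJC4 had 10.0, 12.6 and 14.4 in sh2 and 7.23, 5.75 and 6.97 in shNC replicates 1, 2 and 3. All sh2 libraries were above all shNC libraries, and DNAJC4 rose by 0.79 on the log2 scale (SE 0.16, adjusted p = 0.0289), passing in 5 of 11 alternatives (adjusted p 0.00444 to 0.12). By GENCODE release 29 it overlaps NUDT22 on the same strand, which had 13.3 to 15.6 in sh2 and 14.5 to 17.2 in shNC libraries. DNAJC9, a histone chaperone, and DNAJC8, a splicing-associated J protein, lay at -0.38 (adjusted p = 0.129) and -0.26 (adjusted p = 0.158) on the log2 scale. In the same release DNAJC9 overlaps MRPS16 on the same strand. MRPS16 had 28.33 to 40.06 in sh2 and 60.81 to 68.15 in shNC libraries. The gene spans of 22 of the 57 members overlap a protein-coding gene there. The 23 uncalled DNAJC members had log2 fold changes between -0.40 for DNAJC6 (auxilin, which uncoats clathrin vesicles) and 0.39 for DNAJC22. DNAJC22 had 17.2, 18.0 and 22.2 in sh2 and 12.9, 15.4 and 14.5 in shNC replicates 1, 2 and 3, with groups apart (0.39, adjusted p = 0.109). DNAJC2, the ribosome-bound partner of HSPA14, had 109.9, 67.0 and 67.3 in sh2 and 92.3, 84.4 and 93.7 in shNC replicates 1, 2 and 3; sh2 replicate 1 was the highest and the other sh2 libraries the lowest of the 6.

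Small heat shock proteins, which hold unfolded proteins without using ATP, did not pass the test. HSPB1 (HSP27) was at 446 ± 39.4 in sh2 and 446 ± 83.2 in shNC (SD, n = 3 each). HSPB8, which acts with BAG3 in chaperone-assisted autophagy, had 33.0, 43.0 and 41.2 in sh2 and 28.1, 26.4 and 26.9 in shNC replicates 1, 2 and 3. Its groups were apart and its adjusted p lay just over the limit (0.50, SE 0.13, adjusted p = 0.0501). HSPB8 passed in 3 of 11 alternatives (adjusted p 0.00589 to 0.167). Without sh2 replicate 1, 1 of the 3 small heat shock protein genes rose and 0 fell, against 12% and 12.4% of all genes. HSPB11, an intraflagellar transport subunit in spite of its name, was at 51.4 ± 5.36 in sh2 and 51.0 ± 5.78 in shNC (SD, n = 3 each).

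In all, 2 of the 57 members rose (3.51%) and 4 fell (7.02%), against 4.15% of all genes tested that rose and 3.94% that fell. Those 6 of 57 stand beside 8.08% of all genes called in either direction. Every sh2 library was above every shNC library for 7 members (12.3%) and below for 15 (26.3%), against 14.4% and 18.7% of all genes tested. HSPA12A is counted among the 2 that rose and among these 7. It entered the test through its sh2 values alone and so had to differ. The median log2 fold change was -0.10 for the members and -0.03 for all genes. All 4 members that fell are among the 13 with a mean of at least 100; of all 1135 genes at that level 90 fell (7.93%), and their median was -0.14. With library totals taken without the mitochondrially encoded genes (the rescaling), 4 members rose and 3 fell, and the split over all genes was 673 higher and 221 lower, against 568 and 539 without the rescaling. HSPA8 then lost its call at a log2 fold change of -0.61, DNAJB11 and HSPB8 gained one, and the median was -0.002 for the members and 0.06 for all genes.

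By compartment, the 27 members of the cytosol and nucleus had 0 that rose and 3 that fell, with a median of -0.26. The share lower was 11.1%, against 3.94% of all genes. Of the 27, 20 had a log2 fold change below 0, against 7328 of all 13696 genes. Of the 1135 genes with a mean of at least 100, 791 lay below 0. For the 27 the count was 19 and 18 after quantile normalization and after the rescaling, with medians of -0.19 and -0.15. Of all 13696 genes, 7380 and 5863 lay below 0 in these settings, with medians of -0.03 and 0.06. Of the 10 mitochondrial members 1 rose and 1 fell (10% each, against 4.15% and 3.94% of all genes). Their median was -0.16 (-0.07 after the rescaling, and -0.25 without sh2 replicate 1). Of the 14 ER members 0 were called by limma, and their median was 0.15. An unadjusted p below 0.05 was found for 2 of the 14, against 4019 of all 13696 genes tested. Among ER members, 10 of 14 had a log2 fold change above 0, against 6368 of all 13696 genes tested. The 3 members of vesicles were uncalled; DNAJC5, the synaptic vesicle J protein CSP alpha and the most abundant of them, had 9.27, 9.43 and 9.05 in sh2 and 9.62, 10.8 and 8.15 in shNC replicates 1, 2 and 3. The remaining 3 members, HSPA12A, DNAJC22 and HSPB11, were assigned to no compartment. The difference between compartments was not tested. DNAJB11 rose after quantile normalization and after the rescaling, DNAJB14, a J protein of the ER membrane, fell without sh2 replicate 1, and the other 12 ER members were called in none of the 11 alternatives.

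**Figure D2:**
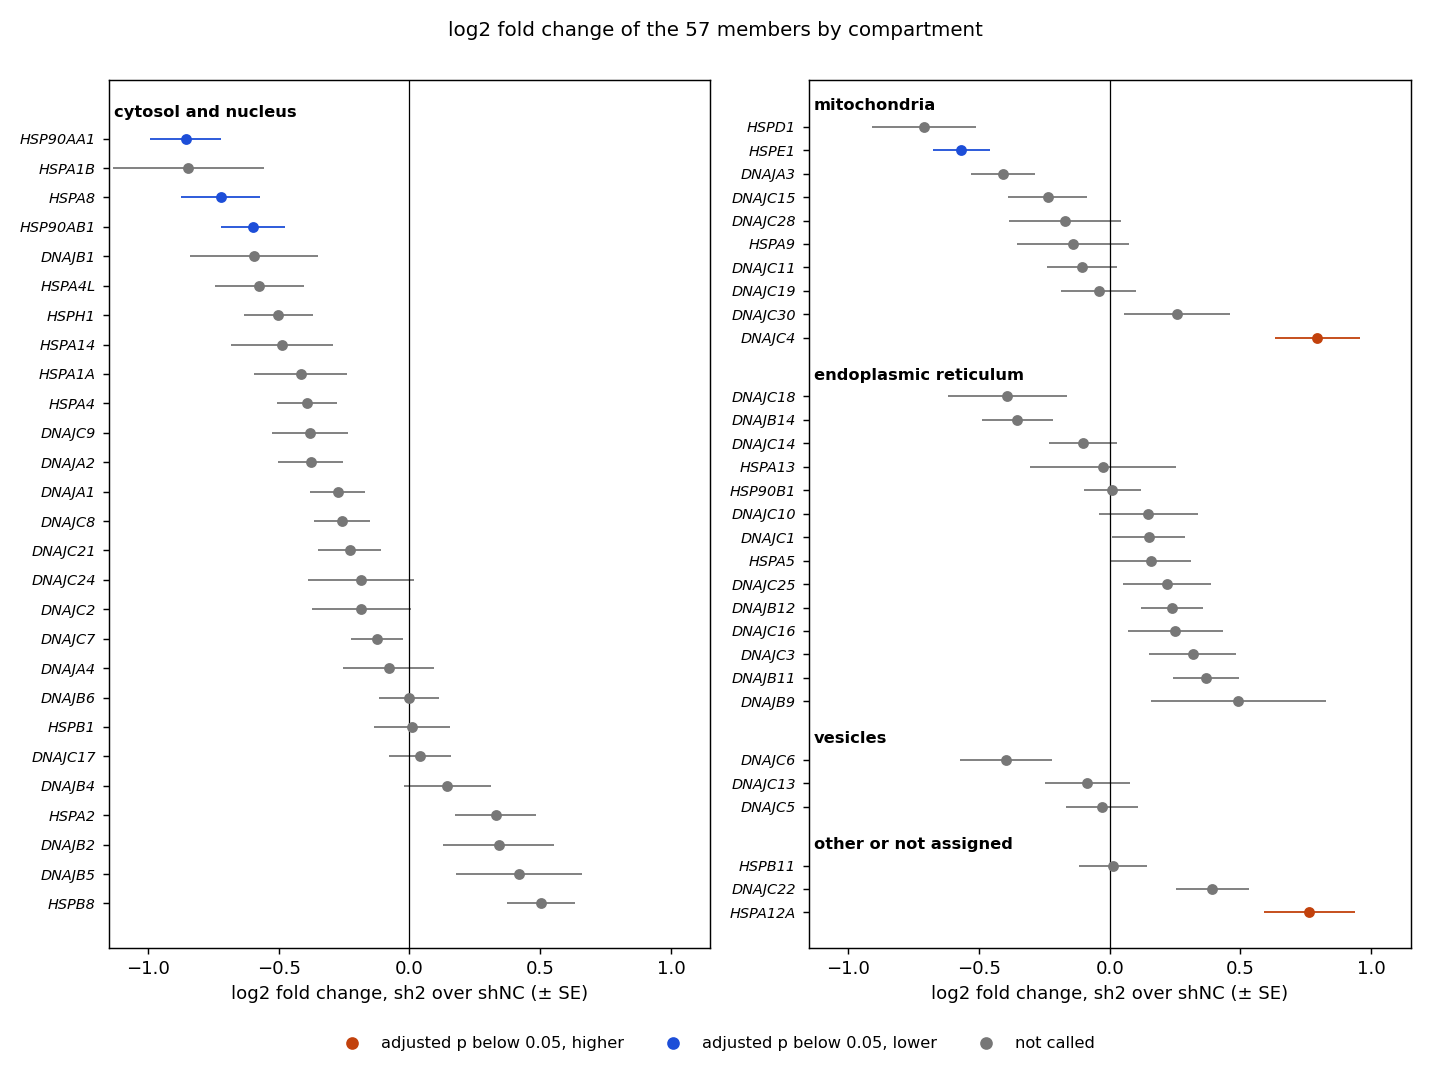
log2 fold change (sh2 over shNC, on log2 of value + 1) of the 57 members with its SE, grouped by compartment; blue points fell, orange points rose, and grey points were not called. Most points of the cytosol and nucleus lie left of 0, with a median of -0.26, and most ER points right of it, with a median of 0.15.

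Of the 14 ER members, 9 were highest in sh2 replicate 1 (DNAJB9, DNAJB11, DNAJC1, DNAJC3, DNAJC10, DNAJC25, HSPA5, HSPA13 and HSP90B1), and DNAJB12, DNAJB14, DNAJC14, DNAJC16 and DNAJC18 were not. DNAJB9, the J protein ERdj4 of ER-associated degradation, had 63.3, 23.0 and 24.7 in sh2 and 21.2, 23.4 and 25.2 in shNC replicates 1, 2 and 3 (log2 fold change 0.49, SE 0.34, adjusted p = 0.366). Sh2 replicates 2 and 3 thus lay within the shNC range, and sh2 replicate 1 was 2.66 times their mean. HSPA5, which encodes BiP, the ER HSP70, had 322, 234 and 230 in sh2 and 206, 239 and 252 in shNC replicates 1, 2 and 3 (0.16, adjusted p = 0.524). HSPA13, a microsomal HSP70, had 21.1, 9.94 and 8.60 in sh2 and 11.7, 13.1 and 12.6 in shNC replicates 1, 2 and 3, so that the sh2 libraries were the highest and the lowest. DNAJC3, which encodes P58IPK, had 11.2, 7.97 and 7.75 in sh2 and 6.27, 6.81 and 7.69 in shNC replicates 1, 2 and 3 (0.32, adjusted p = 0.246). DNAJB11 (ERdj3), a secreted BiP partner, had 195, 153 and 161 in sh2 and 144, 123 and 126 in shNC replicates 1, 2 and 3. Its groups were apart, and it did not pass (0.37, SE 0.13, adjusted p = 0.101). DNAJC10 (ERdj5), a disulfide reductase, had 39.4, 28.2 and 28.6 in sh2 and 22.1, 32.1 and 32.6 in shNC replicates 1, 2 and 3 (0.15, adjusted p = 0.639). Against this, DNAJC18, an ER membrane J protein, had 1.42, 1.65 and 1.74 in sh2 and 3.73, 2.17 and 1.64 in shNC replicates 1, 2 and 3, with sh2 replicate 1 the lowest of all 6 libraries.

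Sh2 replicate 1 was the highest of the 6 libraries for 9 of 14 ER members (64.3%), 2 of 27 members of the cytosol and nucleus (7.41%) and 13% of all genes tested. Set against the other sh2 libraries alone, sh2 replicate 1 was the highest for 10 of 14 ER members (71.4%), 17 of 27 members of the cytosol and nucleus (63.0%), 10 of 11 HSPA and 3 of 3 HSP90 genes, 61.4% of all members and 35.3% of all genes tested. The higher place within sh2 was therefore not limited to the ER members. Among genes with a mean of at least 100, it was found for 76.9% of the 13 members and 55.1% of all 1135 genes. The median ER deviation from the shNC mean, on the log2 scale, was 0.35, -0.01 and 0.05 in sh2 replicates 1, 2 and 3, and the ER members' summed value was 1073, 821 and 856. Without sh2 replicate 1 the ER median was 0.02. These values describe 1 library, which has no replicate of its own, and the genes were looked at in this way after their values were seen. Of the 21 genes of the unfolded protein response and ER folding outside the families, 4 (19.0%) were highest of all 6 libraries in sh2 replicate 1, namely EDEM1, SEC63, ATF6 and HERPUD1. HERPUD1, a target of that response, was at 99.4, 55.0 and 60.6 in sh2 and 58.4, 65.4 and 75.9 in shNC replicates 1, 2 and 3.

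**Figure D3:**
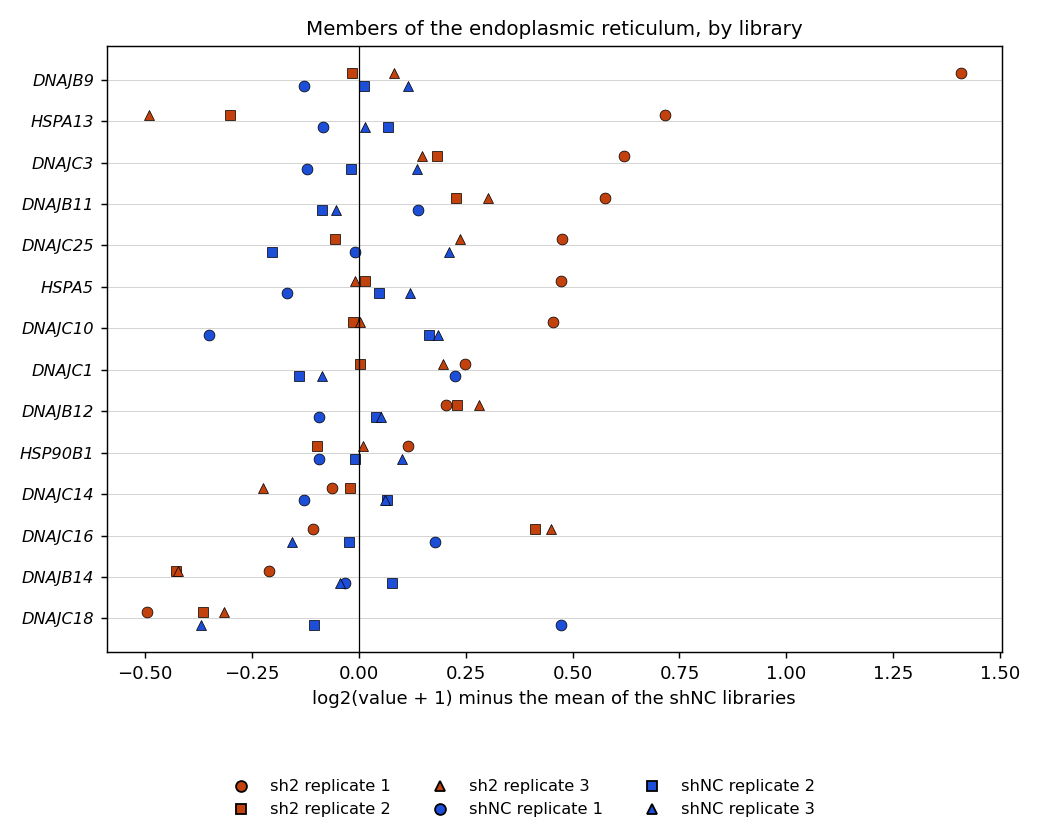
Deviation of log2(value + 1) from the mean of the shNC libraries for the 14 ER members, with sh2 points above shNC points in each row and the replicate number as the symbol. The circle of sh2 replicate 1 lies farthest right for 9 of the 14 genes, DNAJB9 foremost, while sh2 replicates 2 and 3 have medians of -0.01 and 0.05.

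The members of the cytosol and nucleus lay lower, and sh2 replicate 1 was again the highest of the sh2 libraries in the median. Their median deviation from the shNC mean was -0.13, -0.34 and -0.39 on the log2 scale in sh2 replicates 1, 2 and 3. Without sh2 replicate 1, whose removal leaves 2 libraries in sh2, 19 members fell (33.3%) and 7 rose, against 12.4% and 12% of all genes tested. The 14 of these 19 that belong to the cytosol and nucleus included HSPA1A, HSPA1B, HSPA4, HSPA4L, HSPA14, HSPH1 and DNAJB1, and HSPD1, HSPA9, HSPE1 and DNAJA3 were the mitochondrial ones. Leaving out any library other than sh2 replicate 1 ended the calls of HSP90AB1, HSPE1, DNAJC4 and HSPA12A, and HSPA8 kept its call only without shNC replicate 1 or sh2 replicate 1. Without sh2 replicate 2 or without shNC replicate 2, 0 members were called by limma. An unadjusted p below 0.05 was then found for 16 and 13 of the 57 members, against 2914 and 2801 of all 13696 genes. Of all genes, 0.730% were then called higher and 0.270% lower without sh2 replicate 2, and 0.350% and 0.0438% without shNC replicate 2.

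Partners of these chaperones outside the families were taken from lists of known components. The HSP90 list holds 14 co-chaperones and TRAP1, the mitochondrial HSP90, whose symbol lies outside the naming rule. Of these 15 genes, 3 fell and 0 rose, with a median of -0.39. The share lower was 20%, against 3.94% of all genes and 7.93% of the 1135 genes with a mean of at least 100. A log2 fold change below 0 was found in 7328 of all 13696 genes and in 791 of those 1135. Of the 15 genes, 13 lay below 0, and 11 after quantile normalization or the rescaling. In those settings 7380 and 5863 of all genes lay below 0. Those that fell were NUDC, a dynein-associated HSP90 partner, with 124, 128 and 114 in sh2 and 186, 186 and 187 in shNC replicates 1, 2 and 3 (-0.61, adjusted p = 0.0159), STIP1, the adaptor HOP between HSP70 and HSP90 (-0.63, adjusted p = 0.0248), and AHSA1, the activator of the HSP90 ATPase (-0.74, adjusted p = 0.0461); they passed in 6, 5 and 2 of 11 alternatives. Without sh2 replicate 1, 9 of the 15 fell and AHSA2 and TSC1 rose, against 12.4% and 12% of all genes. When any other single library was left out, 0 of the 15 were called. FKBP4, the FKBP52 immunophilin of steroid receptor complexes, had the widest gap and a wide spread. It had 89.5, 27.8 and 19.7 in sh2 and 135, 155 and 177 in shNC replicates 1, 2 and 3, with groups apart, and did not pass (-2.05, adjusted p = 0.0564). PTGES3, the p23 co-chaperone, had 295, 164 and 137 in sh2 and 339, 360 and 354 in shNC replicates 1, 2 and 3 (-0.90, adjusted p = 0.0572). CDC37, the adaptor for kinases, was at 203 to 222 in sh2 and 215 to 225 in shNC libraries.

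The cytosolic chaperonin TRiC, which folds actin and tubulin, had 3 of its 8 genes called lower. Of 14 TRiC and prefoldin genes 3 fell and 0 rose, and the median was -0.36. The share lower was 21.4%, against 3.94% of all genes and 7.93% of the 1135 genes with a mean of at least 100. All 14 had a log2 fold change below 0, as had 7328 of all 13696 genes and 791 of those 1135. After quantile normalization 12 of 14 lay below 0 with a median of -0.22, against 7380 of all genes below 0. After the rescaling 11 of 14 did, with a median of -0.25, against 5863 of all genes. In either case 1 of the 14 fell, against 3.15% and 1.61% of all genes. Without sh2 replicate 1, 9 of the 14 fell, against 12.4% of all genes. With the replicate number as a block, or when any other single library was left out, 0 of the 14 were called. CCT4 had 196, 169 and 140 in sh2 and 243, 289 and 281 in shNC replicates 1, 2 and 3 (-0.69, adjusted p = 0.0289), and CCT5 and TCP1 fell by 0.65 and 0.51 on the log2 scale (adjusted p = 0.0410 and 0.0453); they passed in 4, 2 and 2 of 11 alternatives. Of 13 nucleotide exchange factors and HSP70 cofactors BAG4 fell (7.69%, against 3.94% of all genes), with 10.2, 10.4 and 9.56 in sh2 and 15.3, 15.5 and 13.5 in shNC replicates 1, 2 and 3 (-0.51, adjusted p = 0.0422). BAG4 passed in 3 of 11 alternatives, the rescaling and the replicate block not among them. Without sh2 replicate 1, 6 of the 13 fell, against 12.4% of all genes. BAG3, an HSF1 target, did not pass (-0.50, adjusted p = 0.0938); neither did HYOU1, which exchanges nucleotide on BiP (-0.24, adjusted p = 0.448).

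**Figure D4:**
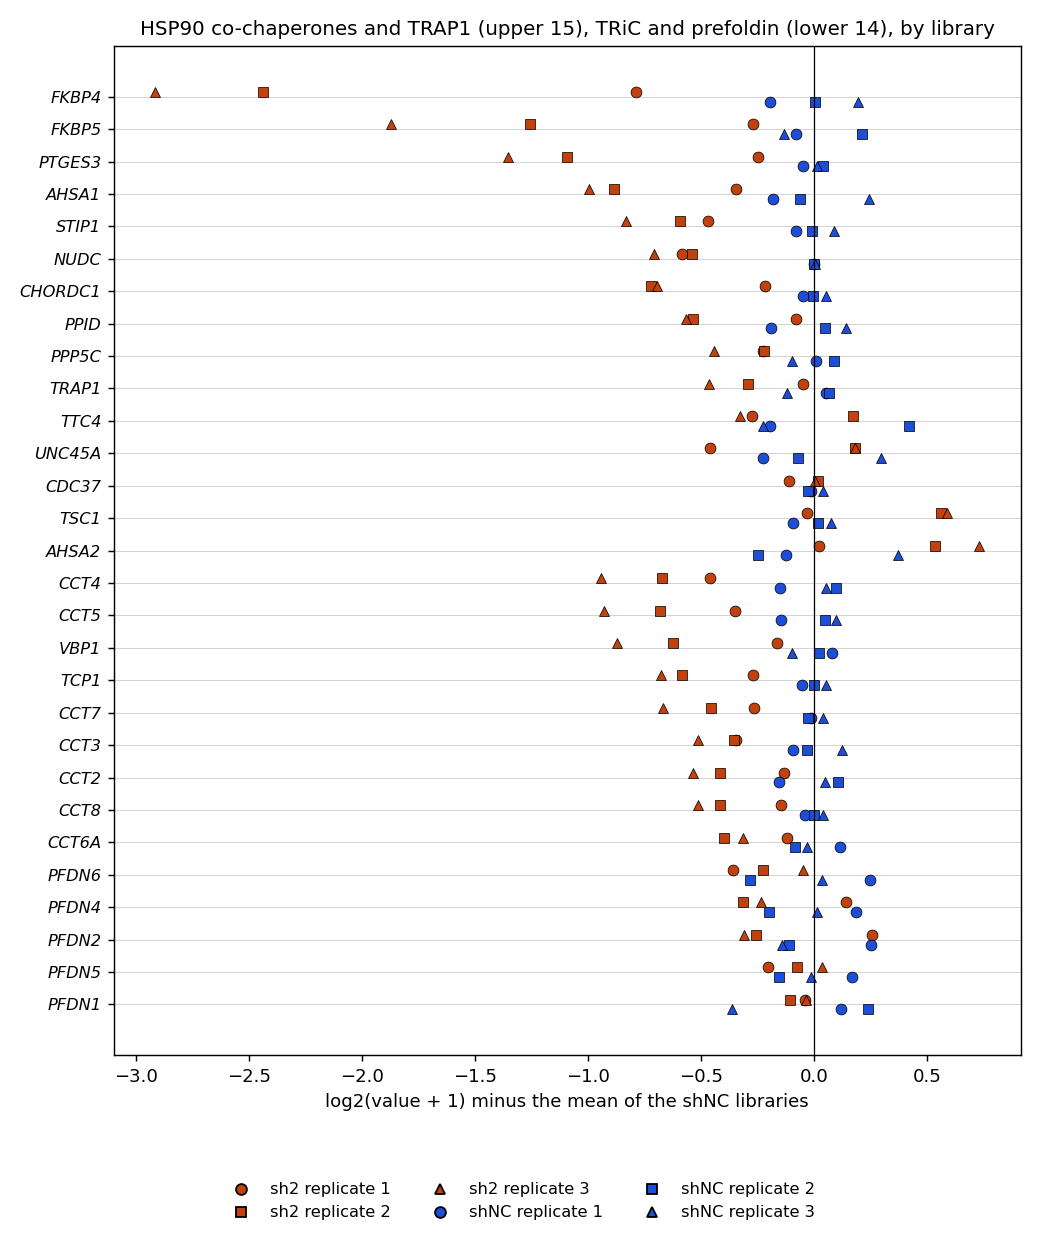
Deviation of log2(value + 1) from the shNC mean for 15 genes of the HSP90 list (14 co-chaperones and TRAP1) and 14 TRiC and prefoldin genes, sh2 points above shNC points in each row, with the replicate number as the symbol. The sh2 circle of replicate 1 lies right of the other sh2 symbols in 8 of 15 and 11 of 14 rows, and FKBP4 spans the widest range.

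The regulators of either response were then compared. HSF1, the main heat shock factor, had a log2 fold change of 0.02 (adjusted p = 0.921). Its value was 35.2, 35.6 and 34.0 in sh2 and 37.5, 34.1 and 31.7 in shNC replicates 1, 2 and 3. Of the 5 heat shock factors and regulators 0 were called by limma. An unadjusted p below 0.05 was found for 3 of the 5, against 4019 of all 13696 genes tested. HSF2 had a log2 fold change of -0.35 (adjusted p = 0.130). HSF4, a heat shock factor best known from the lens, had 19.9, 28.6 and 28.3 in sh2 and 14.9, 12.1 and 20.8 in shNC replicates 1, 2 and 3, overlapping groups; it did not pass (0.66, adjusted p = 0.0837) and rose without sh2 replicate 1. Of 21 genes of the unfolded protein response and ER folding, EIF2AK3 rose and 0 fell (4.76% higher, against 4.15% of all genes). The median was 0.06. Without sh2 replicate 1, 4 rose and 1 fell, against 12% and 12.4% of all genes, and the median was -0.02. EIF2AK3, which encodes the ER stress sensor PERK, had 15.9, 22.8 and 24.2 in sh2 and 7.84, 12.1 and 10.6 in shNC replicates 1, 2 and 3 (0.97, SE 0.20, adjusted p = 0.0289), passing in 5 of 11 alternatives, and it was lowest, among sh2 libraries, in replicate 1. DDIT3, the CHOP gene, had 18.9, 22.7 and 23.4 in sh2 and 17.2, 18.4 and 15.4 in shNC replicates 1, 2 and 3 (0.33, adjusted p = 0.143), and XBP1 had 319, 288 and 283 in sh2 and 241, 285 and 334 in shNC replicates 1, 2 and 3 (0.06, adjusted p = 0.802). Of 10 mitochondrial import and protease partners 0 were called by limma. An unadjusted p below 0.05 was found for 3 of the 10, against 4019 of all 13696 genes tested. Without sh2 replicate 1, 1 rose and 1 fell, against 12% and 12.4% of all genes. Of the 4 J proteins whose symbols lie outside the DNAJ series none was called either. SEC63, the ER translocon J protein, had the smallest p of them (0.40, adjusted p = 0.0883). Without sh2 replicate 1, 1 of these 4 rose and 0 fell, against 12% and 12.4% of all genes. Of 2 alpha-crystallins CRYAB alone was tested, at 0.58 to 1.20 in sh2 and 0.70 to 1.34 in shNC libraries.

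Of the 6 members with a heat shock element in a window, HSP90AA1, HSP90AB1 and HSPA8 fell, HSPD1, DNAJA1 and DNAJB6 were not called, and HSPE1 fell with no match in its own window. Both members with an ER stress element, HSPA5 and HSP90B1, were not called. The motif search was not used in any test.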

How the data were processed

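RNA from 3 sh2 and 3 shNC libraries of Huh7 cells was prepared with Trizol and a TruSeq kit, per the labels' protocols. The authors deposited 1 table of expression values per gene and library, treated here as FPKM because the values are not whole and their sums differ between libraries; the file names no unit, and TPM of an incomplete gene list is possible. Per the submitters' processing notes the tools were, with no roles given, RSEM 1.1.17, Bowtie2 2.2.6, DESeq2 1.16.1, edgeR 3.18.1, Trimmomatic 0.36 and bcl2fastq 2.19.0; mm10, a mouse build, is named although the gene IDs are human. Depth is unknown, so no counting interval is given.

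Values were tested as log2(value + 1) with limma 3.58.1 (R 4.3.3; trended, robust empirical Bayes; two-sided) on the 13696 genes that reached 1 in 3 or more libraries, with Benjamini-Hochberg adjustment over all of them; "rose" and "fell" mean an adjusted p below 0.05. Fold changes are on that scale and understate those of low genes. An exact permutation test of 3 against 3 libraries cannot go below p = 0.1. The test was checked on simulated data. Promoter windows are from RefSeq (GRCh38.p14) and gene overlaps from GENCODE release 29. The members, gene lists and compartments were chosen with earlier results of these data known. The genes named by rule are VCAN, all called members, 18 set members that define their family, the most abundant member of each family and compartment, the 8 uncalled members with the smallest p, all called partners, and HSF1, HSF2, BAG3, HYOU1, DDIT3 and XBP1. Other genes named were chosen after their values were seen, and the motif search was widened to all members. Protein sequences were not used here. Alternatives were another pseudocount, no filter, quantile normalization, rescaling without mitochondrially encoded genes, the replicate number as a block, and leaving out each library.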

Additional observations from a re-analysis of the deposited data

How the results depend on the processing

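All 6 called members kept their direction in 11 alternatives, and 44 of 57 members did. A pseudocount of 0.1 left the calls at 2 higher and 4 lower. Without the filter 0 members rose and 1 fell (221 genes called in all, against 1107), the median over all 71 rows was -0.0422, and 1 member of the cytosol and nucleus and 0 mitochondrial members fell, with 0 mitochondrial members higher. After quantile normalization 3 rose and 2 fell, against 4.1% and 3.15% of all genes. These member calls included 1 higher ER member and 1 higher and 1 lower member of the cytosol and nucleus. After rescaling without mitochondrially encoded genes 4 rose and 3 fell, against 4.91% and 1.61% of all genes. The median of the members was then -0.0021, and 1 ER member and 1 member of the cytosol and nucleus rose. Leaving out 1 library in turn gave 54 to 3342 calls over all genes, 0 to 7 members higher and 0 to 19 lower, with member medians of -0.1541 to -0.054; ER members fell in 0 to 1 cases, mitochondrial members rose in 0 to 1 and fell in 0 to 4, and members of the cytosol and nucleus rose in 0 to 4 and fell in 0 to 14. The cause was not tested.

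Some members near 0 changed sign. After the rescaling the log2 fold change was 0.0066 for DNAJA4, 0.1056 for DNAJB6, 0.0125 for DNAJC13, 0.0633 for DNAJC19, 0.0693 for DNAJC5 and 0.0739 for HSPA13; after quantile normalization it was 0.0493 for DNAJB6 and 0.0117 for DNAJC19. With 1 library left out it ranged from -0.1922 to 0.0134 for DNAJA4, -0.0786 to 0.0828 for DNAJB6, -0.0275 to 0.2411 for DNAJC10, -0.1893 to 0.0068 for DNAJC11, -0.1712 to 0.0672 for DNAJC13, -0.16 to 0.073 for DNAJC19, -0.2729 to 0.0008 for DNAJC28, -0.1249 to 0.0561 for DNAJC5, -0.0436 to 0.0629 for HSP90B1, -0.3952 to 0.2073 for HSPA13, -0.4142 to 0.0066 for HSPA9, -0.0834 to 0.1581 for HSPB1 and -0.0695 to 0.0969 for HSPB11.

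Replicate numbers are shared between the groups, and deviations of same-numbered libraries had correlations of 0.053, 0.105 and 0.135. Sh2 replicate 1 correlated best with another number, while the other sh2 libraries each correlated best with their own. Such weak and mixed values cannot decide whether the numbers pair the libraries, so the pairing is unknown. With the replicate block 1 member rose and 4 fell, and 861 genes were called in all. Depth is unknown and limits what can be said of members below a value of about 1.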
